A study of Mus musculus with 12 samples.

Results

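Of 54351 genes in the deposited count table, 6 were described here: Rag1, Rag2, Dntt, Ptcra, Arpp21 and Cd1d1. They were chosen by symbol, as genes of antigen receptor rearrangement, of the pre-T-cell receptor (pre-TCR) and of CD4 CD8 double-positive thymocytes, and all 6 passed the filter on low counts. The study sequenced polyadenylated RNA of 12 mouse samples on the C57BL/6 background in 4 groups of 3, all bulk cell preparations. LN3 thymus and LN3 spleen were leukaemia cells, of T-cell acute lymphoblastic leukaemia (T-ALL), taken from those organs of overtly sick mice of genotype LN3 tg, a transgenic line whose transgenes and promoters the labels do not name. WT thymocytes were total thymocytes of tumour-free wildtype mice, so they hold thymocytes of every stage. WT CD8 cells were spleen T cells of tumour-free wildtype mice after negative enrichment for CD8, with a stated purity of 85 to 95%. LN3 cells were released by mechanical dissociation, and no enrichment of them is described. The labels give no age or treatment. They do not say that the samples of a group were separate animals, so each p-value measures only the spread from sample to sample, part of which may be technical. In bulk RNA, fewer cells of a type and less RNA per cell cannot be told apart.

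A developing T cell assembles its receptor genes by V(D)J recombination. The proteins of Rag1 and Rag2 together form the recombinase that cuts DNA at the receptor segments, and terminal deoxynucleotidyl transferase, the product of Dntt, adds bases to the cut ends. A rearranged beta chain first pairs with the invariant pre-TCR alpha chain encoded by Ptcra, which carries the cell from the double-negative to the double-positive stage, where the recombinase is used again for the alpha chain. Arpp21 encodes an RNA-binding protein abundant in double-positive thymocytes, and Cd1d1 encodes the lipid-presenting molecule through which double-positive thymocytes select natural killer T cells. Mature T cells outside the thymus switch off the recombinase and the pre-TCR alpha chain.

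The promoters of the 4 rearrangement and pre-TCR genes are shown because these genes are all transcribed in thymocytes, though not all at the same stages. Each sequence is the 250 bases before the gene's start in RefSeq (GRCm38.p6), 5′ to 3′ on the gene's strand, with every E-box (CANNTG, the core motif of the E proteins Tcf3 and Tcf12, read on both strands) in capitals.
Rag1, chr2:101649533-101649782, minus strand: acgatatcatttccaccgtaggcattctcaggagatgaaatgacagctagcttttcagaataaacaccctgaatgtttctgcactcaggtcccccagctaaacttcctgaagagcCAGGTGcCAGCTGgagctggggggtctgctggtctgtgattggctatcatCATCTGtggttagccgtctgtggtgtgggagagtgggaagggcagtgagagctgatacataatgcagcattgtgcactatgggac
Rag2, chr2:101624462-101624711, plus strand: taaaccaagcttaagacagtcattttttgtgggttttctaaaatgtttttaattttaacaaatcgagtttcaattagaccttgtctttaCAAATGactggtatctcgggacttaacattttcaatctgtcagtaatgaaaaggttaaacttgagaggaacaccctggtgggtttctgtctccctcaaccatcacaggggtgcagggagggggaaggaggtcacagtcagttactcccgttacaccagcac
Dntt, chr19:41029025-41029274, plus strand: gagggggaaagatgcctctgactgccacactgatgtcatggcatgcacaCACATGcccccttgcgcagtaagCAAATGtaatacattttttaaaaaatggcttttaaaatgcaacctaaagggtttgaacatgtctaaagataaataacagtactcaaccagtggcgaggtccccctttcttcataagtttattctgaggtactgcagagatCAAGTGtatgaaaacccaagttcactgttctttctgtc
Ptcra, chr17:46763713-46763962, minus strand: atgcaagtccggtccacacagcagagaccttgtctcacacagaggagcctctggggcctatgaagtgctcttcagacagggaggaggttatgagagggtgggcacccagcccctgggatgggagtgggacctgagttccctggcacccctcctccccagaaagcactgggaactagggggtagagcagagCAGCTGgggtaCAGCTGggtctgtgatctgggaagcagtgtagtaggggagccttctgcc
Rag1 held 3 E-boxes, 135, 128 and 85 bases before its start. Rag2 held 1, 161 bases before, and Dntt held 3, at 201, 178 and 38. Ptcra held 2, both CAGCTG, at 60 and 49. Of 32817 RefSeq promoter windows of this length, 66.2% held a CANNTG, so most promoters hold one. CAGCTG itself stood in 13% of windows and in the Rag1 and Ptcra promoters. The Runx letters ACCACA (reverse TGTGGT) were found in 14% of windows, and among these 4 promoters in that of Rag1, at 81 and 67 bases. TGGGAA (reverse TTCCCA), the core shared by Ikaros and RBPJ motifs, was found in 21.6% of windows, and here in Rag1 at 52 and in Ptcra at 84 and 32 bases. Arpp21 has 9 starts in the table, each with a CANNTG in its window, and Cd1d1 was not matched. These matches are descriptions of letters and were not tested as sites.

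In the annotation (GENCODE, GRCm38) Rag1 (chr2:101638282-101649501, minus strand) and Rag2 (chr2:101624718-101632529, plus strand) are convergent neighbours. Both lie inside the span of B230118H07Rik (chr2:101560781-101649532, minus strand), which shares 1.21% of the exonic bases of Rag1 on the same strand and 6.07% of those of Rag2 on the opposite strand. Dntt is at chr19:41029275-41059525, Ptcra at chr17:46755663-46763712, Arpp21 at chr9:112065091-112235938 and Cd1d1 at chr3:86995834-86999441. Whether the counting kept strand is not given in the sources used here, so Rag2 and B230118H07Rik reads cannot be fully told apart. B230118H07Rik itself was at 11.5 ± 5.21 CPM (SD, n = 3; the scaled count defined next) in WT thymocytes. It was at 6.70 ± 3.39 in LN3 thymus, 6.87 ± 5.1 in LN3 spleen and 0.583 ± 0.312 in WT CD8 cells. In LN3 spleen 1 it was at 11.7 CPM, beside Rag2 at 13.1. Of the 31-base stretches of Cd1d1 transcripts, 24.2% also occur in the neighbouring copy Cd1d2, against 5.11% shared with any other gene for Ptcra and none on the same strand for Dntt.

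Levels are given as CPM, which are counts put on one library size by TMM factors (these correct for differences in RNA composition), in libraries 1, 2 and 3 of each group. Total counts ran from 12694571 to 42483898 per library, and 3 counts correspond to 0.0657 to 0.262 CPM. The share of counts on 4 ribosomal repeat genes, a sign of library quality, was above 5% in all 3 LN3 spleen libraries, in LN3 thymus 2 and 3 and in WT thymocyte 3, and below it in the rest, so in the spleen it cannot be told apart from the groups. T-lineage markers (10 genes) summed to 4580 to 9100 CPM in WT thymocytes, 3760 to 6150 in LN3 thymus, 4250 to 4340 in LN3 spleen and 2360 to 3600 in WT CD8 cells, none of them at 0. The 7 genes listed for CD8 T cells, Cd4 among them, summed to 2780 to 5580 CPM in WT thymocytes and 357 to 644 in LN3 thymus. They summed to 257 to 417 CPM in LN3 spleen and 1720 to 2430 in WT CD8 cells. Cd4, not a marker of CD8 T cells, gave 1040, 777 and 1540 CPM of the sums in WT thymocytes. In every other library Cd4 was at 90.8 CPM or less. The erythroid sum (8 genes) was 1920 to 6480 CPM in LN3 spleen, 9.66 to 143 in LN3 thymus, 14 to 3940 in WT thymocytes and 39.6 to 701 in WT CD8 cells. B-cell markers (12 genes) reached 2370 CPM in LN3 spleen and 1610 in WT CD8 cells, and at most 616 in the thymus groups. Myeloid markers reached 3340 CPM, dendritic 1510 and NK-cell markers 749 CPM in WT CD8 cells, against 1620, 1520 and 36.6 in LN3 spleen, 237, 459 and 121 in WT thymocytes and 325, 247 and 44.5 in LN3 thymus. Stromal markers ranged from 113 to 371 CPM over all groups, with Krt5 at 0 in both spleen groups. Among them Pecam1 was at 97.7 to 202 CPM over all libraries. Col1a2 was at 1.22, 249 and 143 CPM in LN3 spleen 1, 2 and 3 and at 93.4 in LN3 thymus 3. In every other library Col1a2 was at 8.35 CPM or less.

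Rag1, the catalytic subunit of the recombinase, was at 5320, 4380 and 4920 CPM in WT thymocytes and at 924, 404 and 211 in LN3 thymus. It was at 235, 113 and 427 CPM in LN3 spleen and at 1.64, 4.62 and 0.591 in WT CD8 cells. The WT thymocyte libraries lay close together and far above every other library, the 6 LN3 libraries lay between the normal groups, and the WT CD8 libraries lay lowest. Rag2, the second recombinase subunit, was at 166, 187 and 70.4 CPM in WT thymocytes and at 55.4, 31.1 and 4.39 in LN3 thymus. It was at 13.1, 3.33 and 46.8 CPM in LN3 spleen and at 2.57, 4.08 and 4.51 in WT CD8 cells. All LN3 libraries were below all WT thymocyte libraries, but LN3 thymus 3 and LN3 spleen 2 were as low as the WT CD8 libraries. Per kilobase of exon, the mean level of Rag1 was 737 ± 71 CPM and that of Rag2 41.2 ± 18.2 in WT thymocytes. In WT CD8 cells that order was turned, with 0.346 ± 0.316 CPM per kilobase for Rag1 and 1.09 ± 0.298 for Rag2 (SD, n = 3 in each case).

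Dntt, whose product diversifies the receptor joints, was at 1070, 999 and 1840 CPM in WT thymocytes, 650, 851 and 569 in LN3 thymus and 629, 645 and 236 in LN3 spleen. It was at 5.52, 5.66 and 4.99 CPM in WT CD8 cells. Every LN3 library was below every WT thymocyte library and above every WT CD8 library. Ptcra was at 25.7, 14.8 and 41.7 CPM in WT thymocytes, 43.7, 47.6 and 4.03 in LN3 thymus and 24.9, 3.68 and 24.7 in LN3 spleen. In WT CD8 cells it was at 0.219, 0.348 and 0.394 CPM, from 4, 11 and 18 counts. Only for Ptcra, among the 6 genes, were any LN3 libraries above the highest WT thymocyte library: 2 of 6, LN3 thymus 1 and 2. Another 2 (LN3 thymus 3 and LN3 spleen 2) were below the lowest, and all 6 were above all WT CD8 libraries.

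Arpp21 was at 458, 445 and 408 CPM in WT thymocytes, 234, 187 and 123 in LN3 thymus, 139, 139 and 156 in LN3 spleen. Its WT CD8 levels were 1.42, 1.39 and 1.12 CPM. Libraries lay closest in WT thymocytes and LN3 spleen and were most spread in LN3 thymus, and only the LN3 groups overlapped each other. Cd1d1 was at 51.7, 45.2 and 61.5 CPM in WT thymocytes, 19.2, 25.6 and 27.5 in LN3 thymus and 22.5, 24.8 and 20.2 in LN3 spleen. In WT CD8 cells it was at 32.1, 26.3 and 31.4 CPM. Unlike the other 5 genes, Cd1d1 was lowest in LN3 cells, and 5 of 6 LN3 libraries were below every WT CD8 library. Over genes in WT thymocytes, the level per kilobase was 737 CPM for Rag1 and 568 ± 205 for Dntt, whose libraries overlapped. It was 41.2 for Rag2, 21.4 ± 10.6 for Ptcra and 20.5 ± 3.19 for Cd1d1, whose libraries overlapped from each gene to the next, while all Dntt libraries were above all of these. Arpp21 has 31 annotated transcripts of very unlike length and was not ranked.

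**Figure D1:**
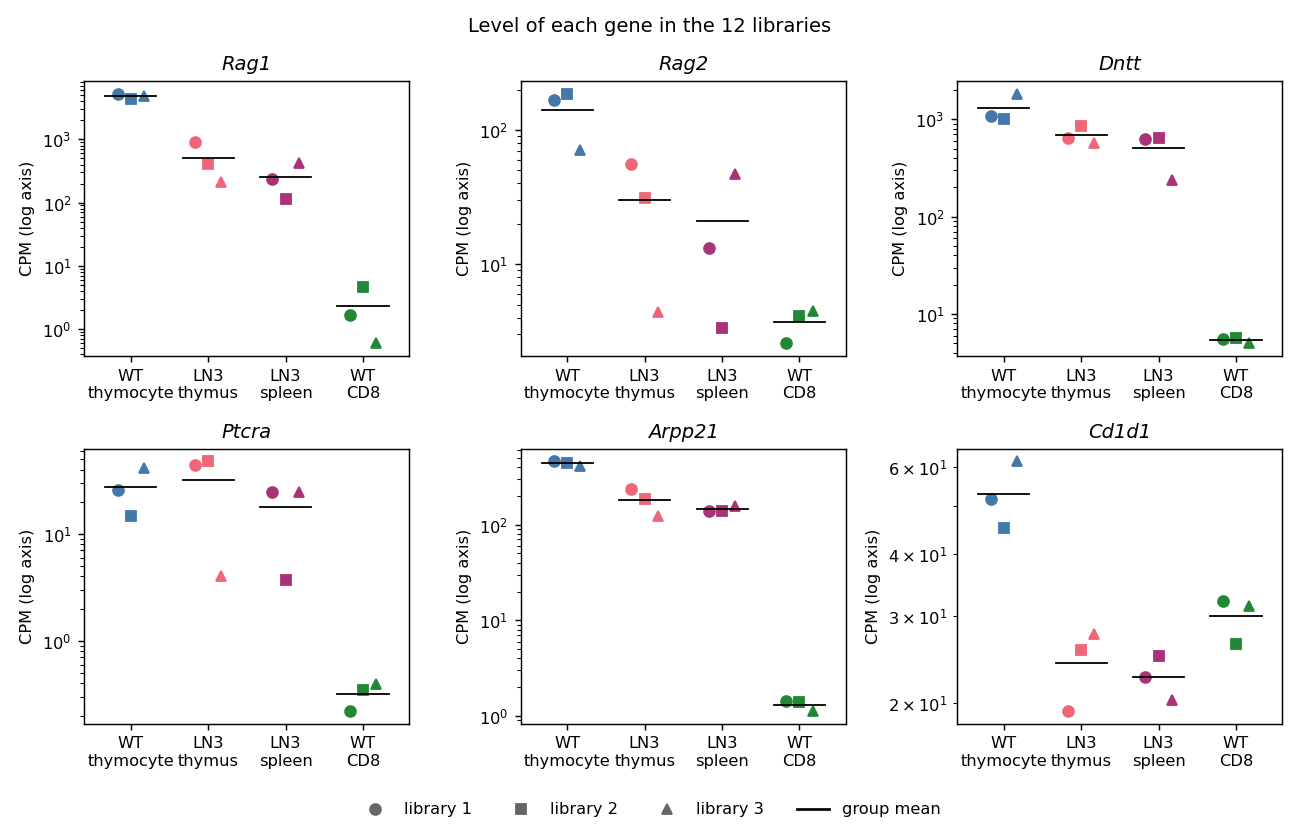
CPM on a log axis of each of the 6 genes in the 12 libraries, by group. Points are libraries 1 to 3 (circle, square, triangle) and bars the group mean. Rag1, Dntt and Arpp21 step down from WT thymocytes through the LN3 groups to WT CD8 cells, Ptcra spreads from 3.68 to 47.6 CPM within LN3 cells, and Cd1d1 is lowest in LN3 cells.

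The first comparison asked how these genes differ between T-ALL cells and thymocytes of the same organ. Rag1 was 9.5-fold lower in LN3 thymus, a mean of 512.9 ± 369 CPM against 4871 ± 469 (SD, n = 3; log2 difference −3.25, SE 0.73, adjusted p = 0.0127, edgeR's quasi-likelihood test with Benjamini-Hochberg adjustment over 20897 genes). Arpp21, with a log2 difference of −1.27 (SE 0.24, edgeR adjusted p = 0.0056), and Cd1d1, with −1.13 (SE 0.23, 0.00811), fell as well. Rag2 had a mean of 30.31 ± 25.5 CPM against 141.1 ± 62.2 and Dntt of 689.8 ± 145 against 1303 ± 469, and neither passed the test in edgeR (log2 difference −2.22, adjusted p = 0.134, and −0.92, adjusted p = 0.145). For Ptcra the means were 31.76 ± 24.1 and 27.42 ± 13.5 CPM, and the log2 difference of 0.21 had a 95% confidence interval of −1.47 to 1.89. So 3 of 6 genes were called lower and none higher, while 5.21% of all genes tested were called lower. In 5 of 6 genes every LN3 thymus library was below every WT thymocyte library, against 12.8% of all genes.

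The Rag1 call was lost without a filter on low counts (adjusted p = 0.0582 in edgeR), without LN3 thymus 2 (0.0547), and without the 3 libraries whose counts rose most steeply with GC content (0.12). Without the 3 thymus libraries above 5% ribosomal repeats the log2 differences were −2.41 for Rag1 (adjusted p = 0.364 in edgeR) and −0.96 for Arpp21 (0.0859), so that the count of genes called lower fell from 3 to 1. That one, Cd1d1, was called under all 24 alternatives. Within the thymus libraries below 5%, WT over LN3 ratios were 5.25 for Rag1, 3.18 for Rag2, 1.59 for Dntt, 1.93 for Arpp21 and 2.52 for Cd1d1. Within those above, they were 16, 3.96, 2.6, 2.64 and 2.32. Ptcra turned, at a log2 difference of 1.11 below and −0.69 above, in 1 LN3 against 2 WT libraries and the reverse. DESeq2 called Rag2 lower in the thymus (adjusted p = 0.0491).

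In the spleen, LN3 cells were set against normal CD8 T cells. Rag1, Dntt, Ptcra and Arpp21 were far higher in the LN3 cells, and Rag2 and Cd1d1 did not pass the test. Rag1 was 113-fold higher, a mean of 258.2 ± 159 CPM against 2.283 ± 2.09 (log2 difference 6.82, SE 0.87, adjusted p = 0.000166 in edgeR). Dntt was 93.4-fold higher, with 503.4 ± 231 CPM against 5.391 ± 0.354 (adjusted p = 2.92e-06 in edgeR). Arpp21 was 110-fold higher, with 144.3 ± 9.97 CPM against 1.31 ± 0.168 (adjusted p = 4.07e-07 in edgeR). Ptcra, at 17.75 ± 12.2 CPM against 0.3202 ± 0.091, was 55.4-fold higher (adjusted p = 0.00122 in edgeR). These 4 calls held under all 24 alternatives, and 17.9% of all genes tested were called higher. The same 4 genes had no overlap between the groups, against 27.5% of all genes.

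Rag2 was the recombinase gene that did not pass: 21.05 ± 22.8 CPM against 3.72 ± 1.02, a log2 difference of 2.49 (SE 0.90, adjusted p = 0.0524 in edgeR), with LN3 spleen 2 at 3.33 CPM inside the WT CD8 range. It passed without that library (log2 difference 3.02, adjusted p = 0.0176 in edgeR), without LN3 thymus 3 (0.0247), without the thymus libraries above 5% ribosomal repeats (0.0421) and with DESeq2 (0.0105). The overlapping gene B230118H07Rik was also higher in LN3 spleen (log2 difference 3.55, adjusted p = 0.0047 in edgeR). The part of B230118H07Rik reads in the Rag2 levels was not tested. Cd1d1 went the other way, with means of 22.5 ± 2.34 CPM in LN3 spleen and 29.94 ± 3.18 in WT CD8 cells (a log2 difference of −0.41, SE 0.23, edgeR adjusted p = 0.183). All 3 LN3 spleen libraries were below all WT CD8 libraries, as for 30.8% of all genes. With library totals as scaling Cd1d1 was called lower (−0.81, adjusted p = 0.0118 in edgeR), and with upper-quartile factors likewise (−0.74, 0.0188). Its near copy Cd1d2 was higher in LN3 spleen, with 2.707 ± 0.387 CPM beside 0.6612 ± 0.28 (a log2 difference of 2.05, edgeR adjusted p = 0.00361), and reads of these copies are divided by estimation.

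Precursor B cells also use Rag1, Rag2 and Dntt. The 5 other precursor B-cell markers summed to 4.66 to 16.1 CPM in LN3 spleen, 8.28 to 31.6 in WT CD8 cells, 7.61 to 15.2 in WT thymocytes and 2.81 to 4.62 in LN3 thymus, with Vpreb2 at 0 in all 12 libraries. In LN3 spleen 1, 2 and 3 that sum was 15.8, 4.66 and 16.1 CPM, below Rag1 and Dntt in each library. The sum was above Rag2 in LN3 spleen 1 and 2 (13.1 and 3.33 CPM) and below it in LN3 spleen 3 (46.8). Most of the sum was Cd93, at 10.2, 3.59 and 14.7 CPM in LN3 spleen 1, 2 and 3, followed by Vpreb3 at 5.41, 0.956 and 0.911. The precursor B-cell markers Vpreb1 and Igll1 were at 0.399 CPM or less there, below Rag2 in each library. The part of such cells in these levels was not tested.

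LN3 spleen was also compared with WT thymocytes, the normal cells in which these genes are most active. The WT thymocyte libraries are the same as in the thymus comparison, so these values are not independent of it. Rag1 was 18.9-fold lower in LN3 spleen (log2 difference −4.24, adjusted p = 0.00328 in edgeR), Rag2 6.7-fold (adjusted p = 0.0484), Dntt 2.59-fold (0.0248), Arpp21 3.03-fold (0.00139) and Cd1d1 2.35-fold (0.00415). Ptcra had a log2 difference of −0.63 (adjusted p = 0.574 in edgeR). Thus 5 of 6 genes were called lower, against 8.52% of all genes. These 5 also had no overlap, against 16.4% of all genes. The Rag2 call was lost under 14 of 24 alternatives (adjusted p up to 0.379 in edgeR). The Dntt call was lost under 5, among them without WT thymocyte 3 (0.0539), without LN3 spleen 3 (0.0703), without the thymus libraries above 5% ribosomal repeats (0.079) and with only the groups compared (0.07).

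Between the LN3 groups none of the 6 genes passed the test in edgeR, and none was below an unadjusted p of 0.05. DESeq2 called none either, while 0.723% of all genes were called in edgeR. Every gene overlapped between the groups. Log2 differences of LN3 spleen from LN3 thymus were −0.99 for Rag1 (95% confidence interval −2.45 to 0.47), −0.53 for Rag2 (−2.36 to 1.31) and −0.84 for Ptcra (−2.53 to 0.85). They were −0.45 for Dntt (−1.25 to 0.35), −0.33 for Arpp21 (−0.85 to 0.19) and −0.10 for Cd1d1 (−0.60 to 0.40). The intervals of Rag1, Rag2 and Ptcra thus include falls of several-fold.

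WT CD8 cells against WT thymocytes gives the normal course of these genes. All 6 were called lower in WT CD8 cells, against 8.49% of all genes, and all 6 had no overlap, against 19% of all genes. The fall was 2130-fold for Rag1 (adjusted p = 4.45e-05 in edgeR), 334-fold for Arpp21 (6.92e-08), 242-fold for Dntt (6.62e-06), 85.6-fold for Ptcra (0.00126), 37.9-fold for Rag2 (0.00413) and 1.76-fold for Cd1d1 (0.0301). Among them only the Cd1d1 call was lost under any alternative, in 11 of 24 (adjusted p up to 0.13 in edgeR), among them without any single WT CD8 library (0.076 to 0.13), without WT thymocyte 1 (0.0709) or without WT thymocyte 3 (0.0643).

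**Figure D2:**
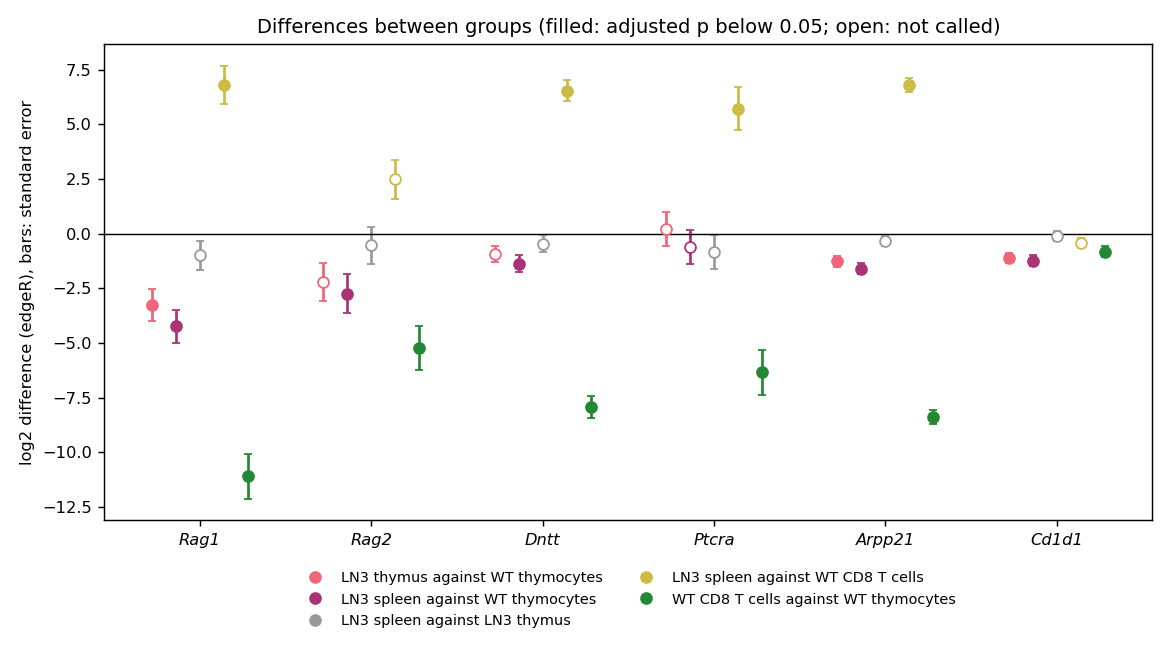
Log2 differences of the 6 genes from edgeR with their standard errors, in 5 comparisons (colours). Filled points passed an adjusted p of 0.05. Rag1, Dntt, Ptcra and Arpp21 lie between 5.72 and 6.82 in LN3 spleen against WT CD8 cells, and the LN3 spleen against LN3 thymus points, from −0.99 for Rag1 to −0.10 for Cd1d1, are open.

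The genotype difference was itself compared between organs, as the spleen difference (LN3 against WT CD8) less the thymus difference (LN3 against WT thymocytes). Organ and control cell type cannot be told apart in it. It was 10.1 on the log2 scale for Rag1 (SE 1.13, adjusted p = 0.000741 in edgeR), 8.06 for Arpp21 (7.34e-07), 7.46 for Dntt (0.000128) and 5.51 for Ptcra (0.0233). Rag2, at 4.71, missed (adjusted p = 0.0568 in edgeR) and so did Cd1d1, at 0.72 (0.274). So 4 of 6 were called higher, against 3.29% of all genes. The Ptcra call was lost under 10 of 23 alternatives (adjusted p up to 0.143 in edgeR), among them without WT thymocyte 3 (0.0684), LN3 spleen 3 (0.0591) or any single WT CD8 library (0.0529 to 0.0717). The Rag1 call was lost without the thymus libraries above 5% ribosomal repeats (9.32, adjusted p = 0.0651 in edgeR). Rag2 was called with DESeq2 (0.00125), without LN3 spleen 2 (0.0234) and with the ribosomal share as a term in edgeR (0.041).

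LN3 libraries differed widely among themselves in some of these genes and little in others. The highest of the 6 LN3 libraries was 16.6 times the lowest for Rag2, 12.9 times for Ptcra and 8.21 times for Rag1, against 3.6 for Dntt, 1.9 for Arpp21 and 1.43 for Cd1d1. Over the WT thymocyte libraries the same ratios were 2.66, 2.82, 1.21, 1.84, 1.12 and 1.36. LN3 thymus 3 and LN3 spleen 2 were the lowest pair for Rag1, Rag2 and Ptcra alike. In Arpp21 LN3 thymus 3 was lowest too, at 123 CPM, and LN3 spleen 2 was at 139, against an LN3 median of 147. In Dntt they were at 569 and 645 CPM, to both sides of the median of 637, and in Cd1d1 at 27.5 and 24.8, above the median of 23.7. In contrast LN3 spleen 3, the lowest in Dntt at 236 CPM, had the second-highest LN3 level of Rag1 and Rag2. LN3 thymus 3 and LN3 spleen 2 were also the deepest LN3 libraries (37273890 and 35852952 counts). Xist, which is transcribed from the inactive X chromosome of females, was at 3980 and 4030 CPM in them, at 2320 in LN3 spleen 3 and at 3.89 or less in the other 3. The part of depth or sex in these levels was not tested. The titles give LN3 thymus 3 and LN3 spleen 2 different T-ALL numbers. Whether they came from separate mice was not tested, and their likeness cannot be counted as that of separate animals.

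**Figure D3:**
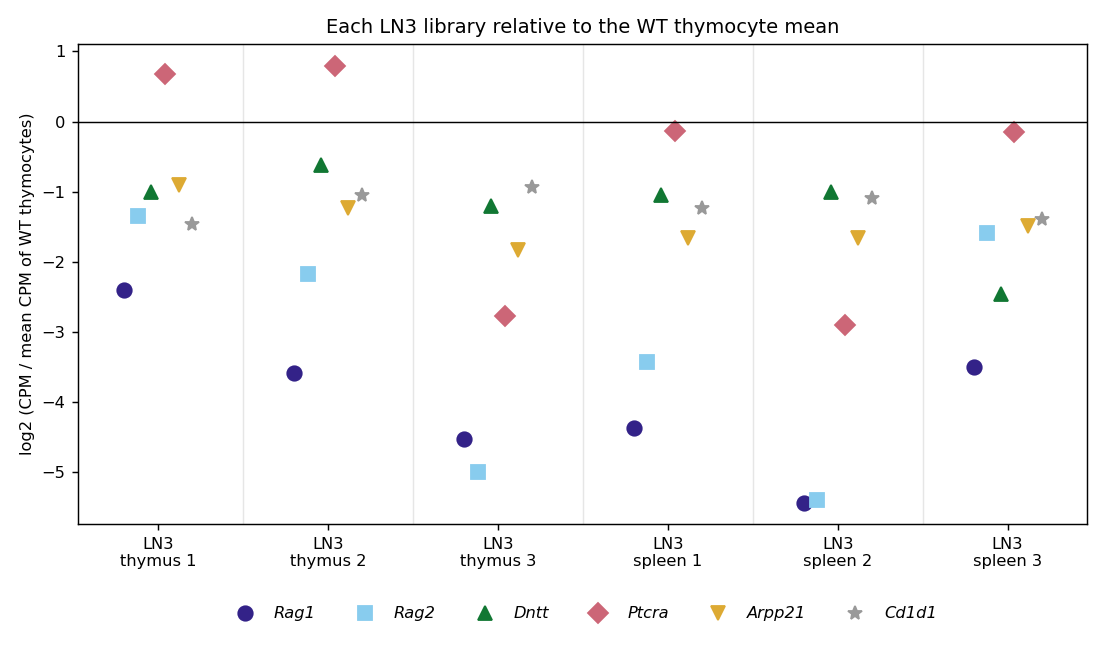
Level of each gene in the 6 LN3 libraries as log2 of CPM over the mean CPM of WT thymocytes (line at 0). In LN3 thymus 3 and LN3 spleen 2, Rag1, Rag2 and Ptcra lie lowest, while Dntt and Cd1d1 lie within the range of the other libraries or above it. LN3 spleen 3 shows the lowest Dntt.

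The likeness of patterns was measured as the root mean square difference of mean-centred log2 CPM, over 12 libraries that share groups and depth. Dntt and Arpp21 were each other's nearest gene among 20896, at 0.513, followed for both by A930003A15Rik (0.545 from Dntt, 0.556 from Arpp21) and Gm15340 (0.702 and 0.611). The nearest to Rag1 was Endou at 1.24, then Arpp21 at 1.4 and H2-Q2 at 1.54. The nearest to Rag2 were Gm10499 (0.858), Ybx2 (0.988) and Tube1 (0.999), and to Ptcra they were Camkv (0.734), Wnt8b (0.972) and Evpl (1.01). Cd1d1 varied little, with an SD of 0.511 on the log2 scale, and many genes lie close to such a pattern: Git2 (0.149), Pptc7 (0.165) and Slc17a5 (0.168) were nearest. Rag1 was 2.64 from Rag2, further than from Dntt (1.69). Over the 6 LN3 libraries alone, Rag2 and Ptcra were 0.606 apart, whereas Rag2 and Dntt were 1.83 apart.

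The other genes of the pathway were described in 6 lists, by counts of called genes in edgeR and by medians. Over all genes, 6.06% were called higher and 5.21% lower in the thymus comparison, and 17.9% and 13% in the spleen comparison. In the V(D)J recombination and end-joining list, 13 of 16 genes tested are other than the 6. In LN3 thymus against WT thymocytes 1 of those 13 rose, Xrcc5, a Ku subunit that holds DNA ends (log2 difference 1.13, adjusted p = 0.0257), and none fell. Against WT CD8 cells, 5 of those 13 rose in LN3 spleen and none fell: the ligase Lig4 (3.11), the Ku subunits Xrcc6 (2.68) and Xrcc5 (1.41), and the DNA-bending Hmgb2 (2.58) and Hmgb1 (2.33). They were named after their values were seen. The median of the whole list was 0.00 in the thymus and 0.97 in the spleen, beside −0.04 and −0.11 over all genes. With library totals as scaling the median was −0.22 in the thymus, and 1 gene was called lower in the spleen beside 7 higher.

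The pre-TCR complex and proximal signalling list had 14 genes tested. In the thymus 3 fell and none rose. Among those that fell were the receptor signalling chain Cd247 (−1.49, adjusted p = 0.0131 in edgeR) and the Ras activator Rasgrp1 (−1.23, 0.0067, named after its value was seen). In the spleen comparison Ptcra and the receptor chain Cd3e (0.91, adjusted p = 0.0473 in edgeR) rose and 1 gene fell. The list's medians were −0.25 and 0.16, and the latter turned to −0.25 with library totals and to −0.18 with upper-quartile factors as scaling, which left 1 gene called higher and 3 lower.

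The double-positive list held 16 genes tested, Arpp21 and Cd1d1 among them. In LN3 thymus 12 fell and none rose, 10 of the 14 other than these. Largest were the coreceptor Cd4 (−4.71, adjusted p = 0.00349 in edgeR) and the thymus-homing receptor Ccr9 (−3.24, 0.0126). The median of the list was −1.40, beside −0.04 over all genes. The count of 12 was 5 without the thymus libraries above 5% ribosomal repeats, 7 without those below, and 10 without the 3 libraries with the steepest GC rise. Against WT CD8 cells, 6 rose in LN3 spleen and 3 fell, with a median of 0.50. Arpp21 had the largest rise (6.79). Those that fell were the activation marker Cd69 (−2.78, 0.00123) and the coreceptor chains Cd8b1 (−2.57, 0.000291) and Cd8a (−2.20, 0.00192), the last named after its value was seen. LN3 spleen against WT thymocytes gave 12 lower and none higher (median −1.56), where 8.52% of all genes were called lower. WT CD8 cells against WT thymocytes gave 10 lower and none higher (median −1.56), where 8.49% of all genes were called lower. Among the calls over all genes, 57.04% were higher in the first of these comparisons and 46.03% in the second.

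**Figure D4:**
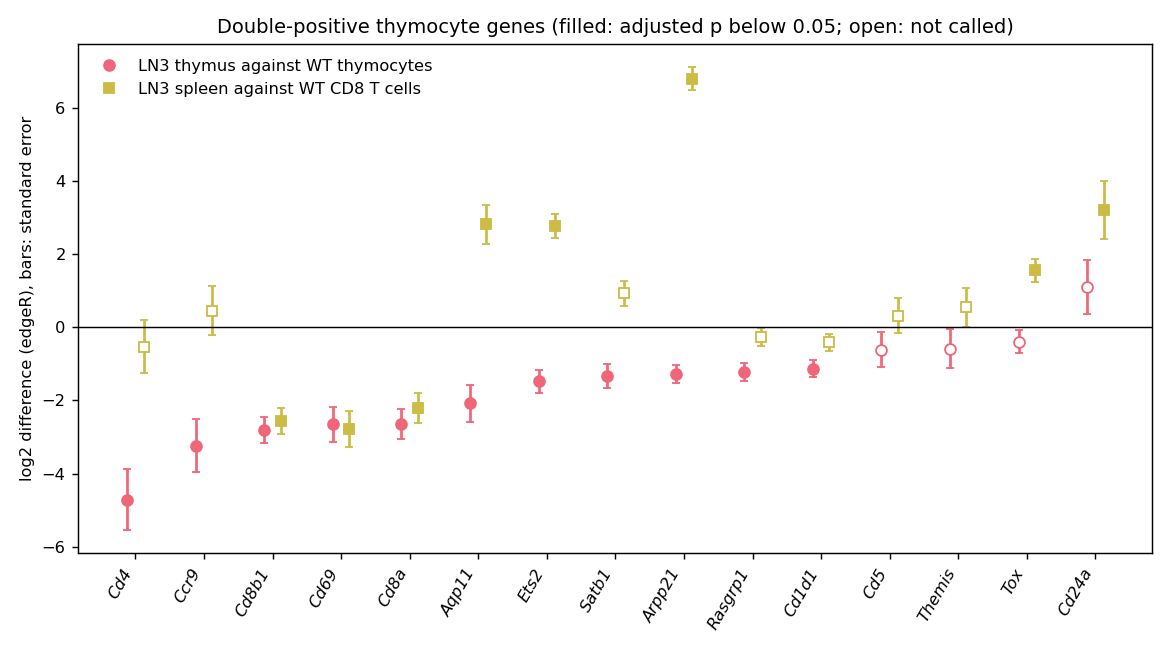
Log2 differences from edgeR, with standard errors, of 15 double-positive genes in LN3 thymus against WT thymocytes (circles) and LN3 spleen against WT CD8 cells (squares), ordered by the first. Filled points passed an adjusted p of 0.05. In the thymus 11 genes are filled below 0, and in the spleen Arpp21 stands highest, at 6.79.

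Of 22 listed regulators of the recombinase and pre-TCR genes, 3 rose and 3 fell in LN3 thymus against WT thymocytes. The receptor Notch1 (2.37, adjusted p = 0.00231 in edgeR), the HMG-box factor Lef1 (1.53, 0.00713) and Runx1 (1.40, 0.0341) rose. The chromatin organiser Satb1 (−1.33, 0.023 in edgeR) and the zinc-finger factor Bcl11b (−1.14, 0.0127) were among those that fell. Runx1 and Bcl11b were named after their values were seen. The median was 0.00, and −0.18 with library totals, which gave 2 higher and 6 lower. The spleen comparison had 12 that rose, Notch1 (2.71) among them, and 2 that fell, Runx3 (−2.51) and Foxo1 (−1.92). That count of 12 was 8 with upper-quartile factors and 6 with the ribosomal share as a term. In both comparisons Notch1, at 2339 ± 428 CPM in LN3 thymus and 1974 ± 881 in LN3 spleen, had no overlap with its controls (as higher levels of 14.4% and 27.5% of all genes), at 453.8 ± 162 in WT thymocytes and 300.8 ± 63.9 in WT CD8 cells.

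Early double-negative genes (16 tested) included 3 that rose in LN3 thymus: the Notch targets Hes1 (4.29, adjusted p = 0.000889 in edgeR) and Dtx1 (3.95, 0.000213) and the interleukin-2 receptor Il2ra (2.49, 0.0434). The 4 that fell were Il7r (−2.88, 0.00543 in edgeR), Bcl11a (−2.38, 0.0358), Kit (−2.06, 0.0125) and Cd44 (−1.84, 0.0398). Il2ra, Kit and Cd44 were named after their values were seen. In LN3 spleen against WT CD8 cells 2 rose, Il2ra (3.93) and Hes1 (3.70), and 2 fell, Il7r (−5.29) and Cd44 (−2.07). Between LN3 spleen and LN3 thymus 5 rose in the spleen, where 0.694% of all genes did, with Tal1, an erythroid and progenitor factor, foremost (8.46, adjusted p = 0.00624 in edgeR), and none fell. The erythroid sum given above was also higher in every LN3 spleen library than in any LN3 thymus library, while the myeloid sums overlapped (302 to 1620 against 53.3 to 325 CPM). The 12 B-cell markers had a median log2 difference of 3.31 between these groups, beside −0.05 over all genes. In edgeR 11 of 12 had an unadjusted p below 0.05, where 1817 of 20897 genes tested did. Only 1, Cd22, was called in edgeR (3.27, adjusted p = 0.036, named after its value was seen). The B-cell sum, most of it Ighm, overlapped (315 to 2370 against 299 to 482 CPM). The part of erythroid, B or myeloid cells in those 5 genes was not tested. Of 14 genes of maturation after positive selection, 1 rose and 5 fell in LN3 thymus, led by Zbtb7b, the factor of the CD4 lineage (−4.80, adjusted p = 0.000695 in edgeR), and Egr2 (−3.17, 0.00387). Of the same genes 10 fell in LN3 spleen against WT CD8 cells, led by Il7r (−5.29) and the egress receptor S1pr1 (−4.26), and 2 rose, Itm2a (3.23) and Egr1 (0.89). With library totals as scaling, none of these genes rose in the thymus and 1 rose in the spleen.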

How the data were processed

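Per the submitters' processing notes, the authors used kallisto 0.46.1, which assigns read pairs to transcripts and divides those of near-identical transcripts by estimation, FastQC and DESeq2, on genome build GRCm38. Neither the annotation release nor the strand setting, nor a version of the other tools, is given in the sources used here. The authors deposited estimated counts per gene, without normalization (all 652212 values whole, and rounded before the fits without effect), and a table of variance-stabilized values on a log2 scale, used only in an alternative. Other columns of per-sample values numbered 0.

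Of 54351 genes, 16997 had no count and 20897 passed edgeR's filterByExpr. One fit of 4 group means over all 12 libraries (edgeR 4.0.16 in R 4.3.3, TMM factors, robust quasi-likelihood test, 8 residual degrees of freedom, common biological coefficient of variation 0.4411) gave all adjusted p-values, unless another tool is named. Genes were called at a Benjamini-Hochberg adjusted p below 0.05 over all genes tested. The procedure was tested on simulated data. At 3 libraries a group its power was low, so a gene that was not called may still differ by several-fold. Means are ± SD over libraries. The floor of 3 counts and counting errors cover counting only: PCR copies were not marked by molecular identifiers. Fold changes are ratios of mean CPM.

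The 6 genes, the 6 pathway lists and the marker lists were chosen with earlier results of these data known. Named besides the 6 were neighbours and near copies, the 3 genes nearest in pattern (log2 CPM with a prior count of 2), Notch1, Cd4 and Cd8a, and of each list the 2 called genes with the largest difference in each direction. Some genes that this rule would name are not reported here. Alternatives were library totals, upper-quartile factors, DESeq2 1.42.0, limma 3.58.1 on the deposited values, no filter, no robust option, only the groups compared, the replicate number as a block and leaving out each of the 12 libraries. After seeing the data, 4 more were added, on the ribosomal repeat share and the GC slope.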

Additional observations from a re-analysis of the deposited data

Results flagged for a closer look

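The genotype difference in the spleen less that in the thymus was called, by edgeR's test of the difference, for 4 of the 6 genes. It was 10.1 on the log2 scale for Rag1, 8.06 for Arpp21, 7.46 for Dntt and 5.51 for Ptcra. In that order the spleen differences were 6.82, 6.79, 6.54 and 5.72. The thymus differences were −3.25, −1.27, −0.92 and 0.21, so for Rag1, Arpp21 and Dntt the signs were opposite. The 2 differences rest on different control cells, WT CD8 cells and WT thymocytes, which differ in these genes themselves. WT CD8 cells differed from WT thymocytes by −11.1, −8.39, −7.92 and −6.35 in the same order. LN3 spleen differed from LN3 thymus by −0.99, −0.33, −0.45 and −0.84, none of them called.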

How the results depend on the processing

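Of the values of the 6 genes under the alternatives, 797 kept direction and side of the threshold, 46 lost a call, 10 gained one and 11 changed sign. Those that changed sign were uncalled. For Ptcra in LN3 thymus against WT thymocytes they were −0.29 with limma, −0.09 without WT thymocyte 2, −0.07 without LN3 thymus 1, −0.21 without LN3 thymus 2 and −0.66 without the thymus libraries below 5% ribosomal repeats. For LN3 spleen against LN3 thymus they were, for Rag2, 0.27 without LN3 thymus 1, 0.20 with the ribosomal split as a term and 0.27 without the thymus libraries below it, and for Cd1d1 0.0111 without LN3 thymus 3, 0.37 without the thymus libraries above the split and 0.0311 without the 3 of steepest GC rise. Leaving out 1 library, these 3 differences ran from −0.21 to 0.74, from −1.91 to 0.27 and from −0.23 to 0.0111. The cause was not tested in any of these.

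Over all genes, 2354 were called in LN3 thymus against WT thymocytes, 1479 with only the groups compared, 767 without the thymus libraries above the split (1 of the 6 genes called lower, not 3) and 1203 to 2737 leaving out 1 library. LN3 spleen against WT CD8 cells gave 6453, 2838 with the split as a term and 3999 to 8582 leaving out 1 library, with 1 of the 6 called lower under library totals and upper-quartile factors. LN3 spleen against WT thymocytes gave 4146, 2406 with only the groups compared, 6798 without the libraries above the split and 1930 to 5818 leaving out 1 library. There 3 to 5 of the 6 were called lower leaving out 1 library, and 3 without the libraries of steepest GC rise. LN3 spleen against LN3 thymus gave 151, 43 with library totals, 651 with DESeq2, 41 with the split as a term, 28 without libraries above it, 0 without those below, 1 without those of steepest GC rise and 0 to 255 leaving out 1 library. WT CD8 cells against WT thymocytes gave 3287, 5195 without libraries below the split and 1871 to 3284 leaving out 1 library. The difference between organs gave 875, 1738 with DESeq2, 213 without libraries above the split (2 of the 6, not 4), 2318 without those below and 463 to 880 leaving out 1 library.

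The sample titles give the LN3 thymus and LN3 spleen samples the same T-ALL numbers. The replicate numbers of the labels were not taken as pairs in the main fit. Same-numbered LN3 thymus and spleen libraries deviated from their group means with correlations of −0.15, −0.53 and −0.04. The Xist level of LN3 thymus 2 and LN3 spleen 2 differed (3.89 and 4030 CPM). It was low in both LN3 thymus 1 and LN3 spleen 1 (2.14 and 1.31). In LN3 thymus 3 and LN3 spleen 3 it was high in both (3980 and 2320). Other-numbered LN3 pairs reached 0.46 (thymus 2 with spleen 1) and 0.43 (thymus 3 with spleen 2). Pairs of unlike genotype, which cannot share a mouse, reached as much: 0.505 for WT thymocyte 3 with LN3 thymus 2, and 0.434 for WT thymocyte 2 with LN3 thymus 1. These correlations thus cannot show which samples share a mouse. Beyond the shared T-ALL numbers, the labels do not say which LN3 samples share a mouse. Dependence between the LN3 groups was not tested. With the replicate block, 31 genes were called between the LN3 groups and 532 in the difference between organs. Of the 6 genes, Rag2 in LN3 spleen against WT thymocytes (adjusted p = 0.106), Cd1d1 in WT CD8 cells against WT thymocytes (0.064) and Ptcra in the difference between organs (0.088) were then not called by edgeR.

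Library totals moved the median of all genes by −0.19 in the thymus and −0.40 in the spleen comparison, and the higher genes among all calls from 53.78 to 38.24% and from 57.96 to 40.02% (upper-quartile factors 41.2 and 41.68%). In LN3 spleen against WT thymocytes that share went from 57.04 to 33.45% (38.87%). At 3 libraries a group, uncalled differences in Rag2 and Ptcra of several-fold were not resolved.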
